A study of Homo sapiens with 24 samples.

Results

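ERBB4 lines were set against the vector line over both ligand states, to find the differences between lines that were present whether or not neuregulin 1 (NRG1) had been given. All 24 arrays of the series entered the comparison, 16 of ERBB4 lines and 8 of the vector line. They hold 12 biological samples, 8 of ERBB4 lines and 4 of vector, each measured on 2 technical arrays. MCF10A is a line of human breast epithelial cells with basal features that does not form tumours. CYT1 cells and CYT2 cells were MCF10A stably expressing one cytoplasmic isoform of the receptor tyrosine kinase ERBB4, and VEC cells stably carried the control vector. All 3 lines had gone 48 h without serum. RNA was taken after a further 2 h with NRG1, a ligand of ERBB4, or without it. There were 4 CYT1 samples, 4 CYT2 samples and 4 vector samples, 2 of each with NRG1 and 2 without ligand.

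The series title calls the receptors full-length JM-a ERBB4, while ICD follows the isoform name in the characteristics of the samples. Each isoform and the vector is represented by 1 stable line, so the introduced gene and any other difference between the lines cannot be told apart. Biological replicates are named as such, but no label says that they came from separate cultures, so a p-value measures only how far these samples spread.

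ERBB4 belongs to the epidermal growth factor receptor family. Binding of a neuregulin pairs the receptor with a family member, and its tail then recruits signalling proteins of the ERK and phosphatidylinositol 3-kinase pathways. The CYT1 tail holds a phosphatidylinositol 3-kinase binding stretch that the CYT2 tail lacks, and the JM-a form can be cleaved to release an intracellular domain. MCF10A cells are grown with epidermal growth factor and, being basal-like, can express genes of stratified, keratinizing epithelium.

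The level of ERBB4 itself was not measurable here. Its only probe was above background on 0 of 16 arrays of ERBB4 lines and on 0 of 8 vector arrays, so it checks nothing about the labels. The basal and epithelial markers KRT5, KRT14, CDH1, CDH3, ITGB4, VIM and EGFR were above background on all 24 arrays. Other genes were looked up because the line is known or thought to lack them. The leukocyte marker PTPRC, the progesterone receptor PGR and the fibroblast marker LUM were above background on 0 arrays. On its brightest probe the fibroblast marker DCN was above background on 16 of 16 arrays of ERBB4 lines and 8 of 8 vector arrays. ESR1 was so on 12 and 5 of those arrays, COL1A1 on 10 and 8 and COL1A2 on 9 and 5. COL3A1 was so on 2 and 0, and PECAM1 and CDKN2A on 1 and 0. Of 10 fibroblast markers 4 were measured, and their summed log2 level was 8.498 to 8.733 in ERBB4 samples and 8.406 to 8.683 in vector samples. The first of the CYT1 samples with NRG1 lay far from the other of its group on the first principal component. It was at -18.2 against -0.57 for sample 2, so counts are also given without it. On the other side CYT2 samples 1 and 2 without ligand lay far out too, at 13.02 and 17.25. Values are log2 intensities after background correction and normalization, a difference of 1 is a doubling, and differences are ERBB4 lines minus vector with the standard error (SE) of the fit.

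With ligand averaged, 13 of 21 measured genes of keratinocyte differentiation were lower in the ERBB4 lines, and 6 of these were lower in each ligand state. KRT4 and KRT1 were 3.88- and 3.77-fold lower, and the protease KLK7 and the antioxidant enzyme GPX2 were 2.98- and 2.49-fold lower. KRT13 and the vitamin B12 carrier TCN1 each changed by -1.68 on the log2 scale, but were above background on only 6 and 5 of 16 arrays of ERBB4 lines, and each changed by -0.59 on the authors' unnormalized values. Rises were smaller, led by KIR2DL4, ACOX2 and POGLUT3. In limma's moderated test with Benjamini-Hochberg adjustment, 348 of 12357 genes (2.82%) differed at an adjusted p under 0.05, of which 123 (0.995%) were higher and 225 (1.82%) lower. On the authors' unnormalized values only 116 genes passed and 26.7% of them were lower, against 64.7% on the normalized values.

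A gene was called lasting where it passed this test and none of its 8 ERBB4 samples overlapped any of its 4 vector samples. There were 251 such genes, or 2.03% of all tested, of which 90 (0.728%) were higher and 161 (1.3%) lower. Whatever their p, 456 genes (3.69%) had no overlap. The median change was -0.42 among the lasting lower genes and 0.34 among the lasting higher genes. A fold of at least 2 was reached by 13 of the lower genes and by 0 of the higher genes. The count moved with the vector samples: it was 122 without vector sample 2 without ligand and 99 without vector sample 2 with NRG1, of which 97 were among the 251. It was 166 without CYT2 sample 1 without ligand. Without CYT1 sample 1 with NRG1, all 251 remained and the count was 407. The number past the test alone was 527 without that CYT1 sample, and 103 without vector sample 2 with NRG1. It was 223 and 134 without vector sample 1 or 2 without ligand, 229 without CYT1 sample 2 with NRG1 and 210 without CYT1 sample 2 without ligand. Without CYT2 sample 1 without ligand it was 190, and without CYT2 sample 2 with NRG1 it was 198.

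**Figure D1:**
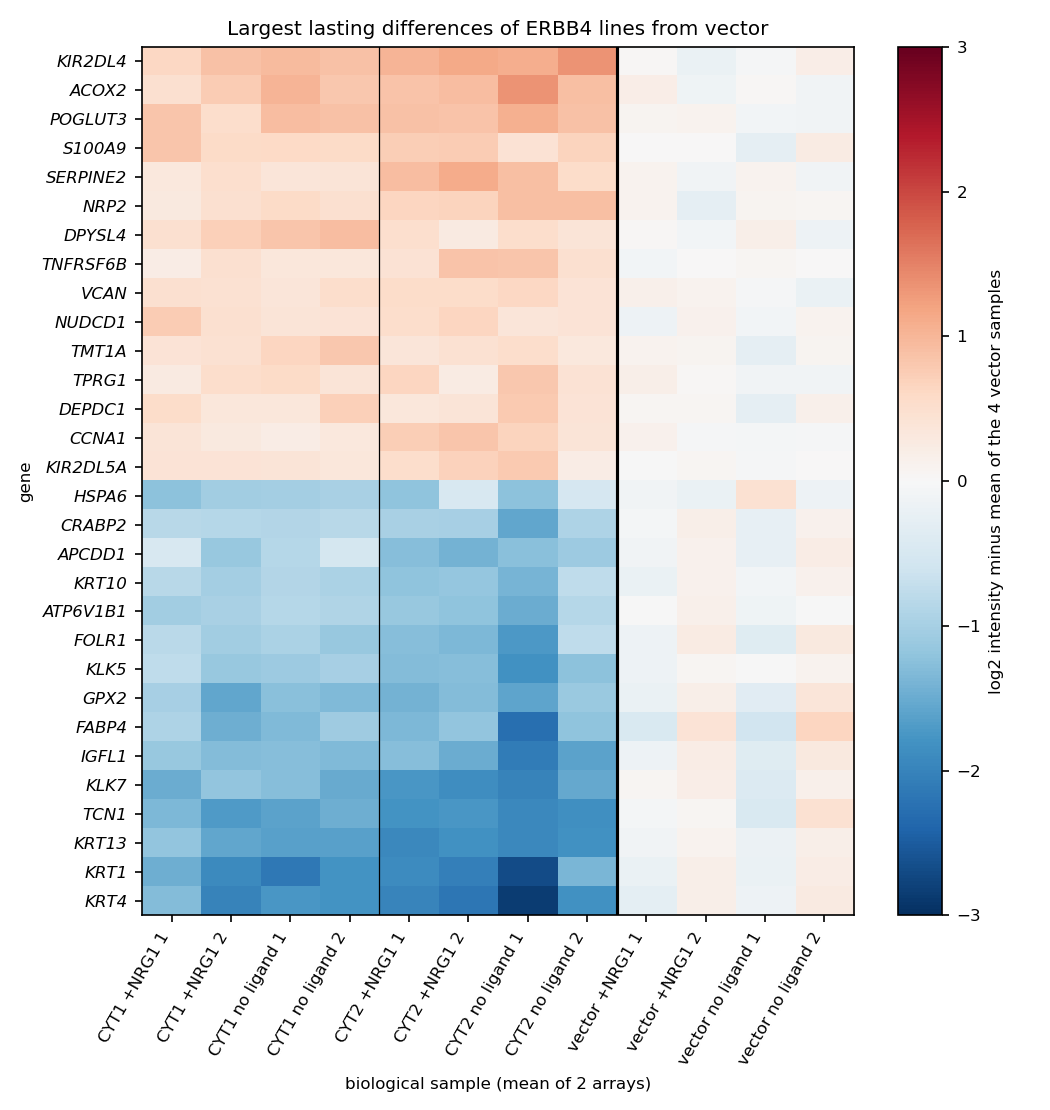
Log2 intensity of the 15 largest lasting rises and the 15 largest lasting falls, each minus the mean of the 4 vector samples, with genes down the page and the 12 biological samples across (CYT1, CYT2, then vector). Red is higher and blue lower than vector. The 8 ERBB4 columns are of one colour in each gene, and the 4 vector columns are pale.

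Keratins held the largest falls, but of 17 measured only 5 were lower, against 1.82% of all genes, and 3 lay above 0. KRT4 and KRT13 pair with each other in non-cornified stratified epithelium, and KRT1 and KRT10 pair in the upper layers of skin. KRT4 ran from 5.59 to 7.12 in the 8 ERBB4 samples (median 6.53), against 8.14 and 8.60 in vector samples with NRG1 and 8.29 and 8.69 in vector samples without ligand. Its highest ERBB4 sample lay about 1 log2 unit under its lowest vector sample. The change was -1.96 (SE 0.20, adjusted p = 8.14e-05), a 3.88-fold fall. In such bulk RNA, fewer cells of a differentiated type and less RNA per cell cannot be told apart.

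KRT13 ran from 4.65 to 5.40 in ERBB4 samples (median 4.86), against 6.48 and 6.68 in vector samples with NRG1 and 6.40 and 6.76 in those without ligand, a change of -1.68 (SE 0.12, adjusted p = 6.4e-06). It was above background on all 8 vector arrays and on 6 of 16 arrays of ERBB4 lines. KRT1 ran from 5.56 to 6.87 in ERBB4 samples (median 6.35), against 8.05 and 8.42 in vector samples with NRG1 and 8.05 and 8.47 in those without ligand. Its change was -1.92 (SE 0.19, adjusted p = 5.41e-05), a 3.77-fold fall with no overlap between the groups. KRT10, much brighter on its own probe, ran from 10.63 to 11.28 in ERBB4 samples (median 11.05), against 11.84 and 12.17 with NRG1 and 11.95 and 12.17 without ligand in vector samples. It changed by -1.03 (SE 0.11, adjusted p = 0.000141). The epithelial keratin KRT80 was also lower, by 0.54 on the log2 scale (SE 0.10, adjusted p = 0.00982), and its second probe gave -0.21.

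Kallikrein-related peptidases are secreted serine proteases. Of 6 measured, 4 were lower, against 1.82% of all genes, while KLK6 and KLK8 did not pass. In skin, KLK5 and KLK7 cut the desmosomal proteins that hold surface cells together. KLK7 ran from 5.59 to 6.40 in ERBB4 samples (median 6.07), against 7.65 and 7.79 in vector samples with NRG1 and 7.17 and 7.75 in those without ligand. It fell by 1.58 on the log2 scale (SE 0.15, adjusted p = 5.41e-05), or 2.98-fold. KLK5 ran from 8.42 to 9.47 in ERBB4 samples (median 9.05), against 10.08 and 10.29 in vector samples with NRG1 and 10.22 and 10.33 in those without ligand. It fell by 1.199 (SE 0.14, adjusted p = 0.000212), and its other probes gave -1.12 and -1.26. The groups did not overlap for either protease. KLK10 changed by -0.73 (adjusted p = 0.00907) and KLK11 by -0.41 (adjusted p = 0.00831), but a second KLK10 probe gave -0.03.

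Of 9 measured desmosomal cadherins and plaque proteins of the PKP family, 4 were lower, against 1.82% of all genes. PKP2 and DSG2 lay above 0. The cadherin DSG1 changed by -0.66 (SE 0.13, adjusted p = 0.0162) and the plaque protein PKP1 by -0.67 (SE 0.12, adjusted p = 0.00899). DSG1 ran from 4.84 to 5.52 in ERBB4 samples, against 5.84 and 6.18 with NRG1 and 5.62 and 6.30 without ligand in vector samples. The cadherins DSC2 (-0.51, adjusted p = 0.00668) and DSC3 (-0.27, adjusted p = 0.0345) fell as well, although a second DSC3 probe gave -0.04. Of the cornified envelope genes, SPRR1B, a precursor cross-linked into the envelope, changed by -0.61 (adjusted p = 0.0162). SBSN (suprabasin) changed by -0.65 (adjusted p = 0.00954) and CNFN (cornifelin) by -0.34 (adjusted p = 0.0168). TGM1, the transglutaminase that cross-links the envelope, was level within its spread at 9.61 to 10.14 in ERBB4 samples and 9.90 to 10.06 in vector samples (-0.06, SE 0.09, adjusted p = 0.776).

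S100A9, a calcium-binding protein that pairs with S100A8 and is induced in stressed or inflamed keratinocytes, went the other way. It ran from 11.26 to 11.66 in ERBB4 samples (median 11.47), against 10.85 and 10.86 in vector samples with NRG1 and 10.56 and 11.08 in those without ligand, with no overlap. It rose by 0.64 (SE 0.09, adjusted p = 0.000934). S100A8 gave 0.34 (SE 0.10, adjusted p = 0.0854) and its groups overlapped.

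In all, 13 of the 21 measured members of the keratinocyte differentiation list were lower and 1 was higher, against 1.82% and 0.995% of all genes, and each of these 14 was lasting. The list median was -0.54, beside 0.00343 over all genes. It was -0.45 with NRG1 and -0.70 without ligand. With NRG1, 6 members were lower (KRT4, KRT1, KRT13, KRT10, KLK7 and KLK5) and 1 was higher, against 0.356% and 0.121% of all genes. Without ligand, 9 were lower, those 6 with KLK10, SBSN and SPRR1B, and 1 was higher, against 1.46% and 0.866% of all genes. The list was chosen with earlier results of these data known, so its count is a description. The count of lower members was 9 to 13 when any 1 sample was left out, 13 without CYT1 sample 1 with NRG1, and 7 on the unnormalized values.

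**Figure D2:**
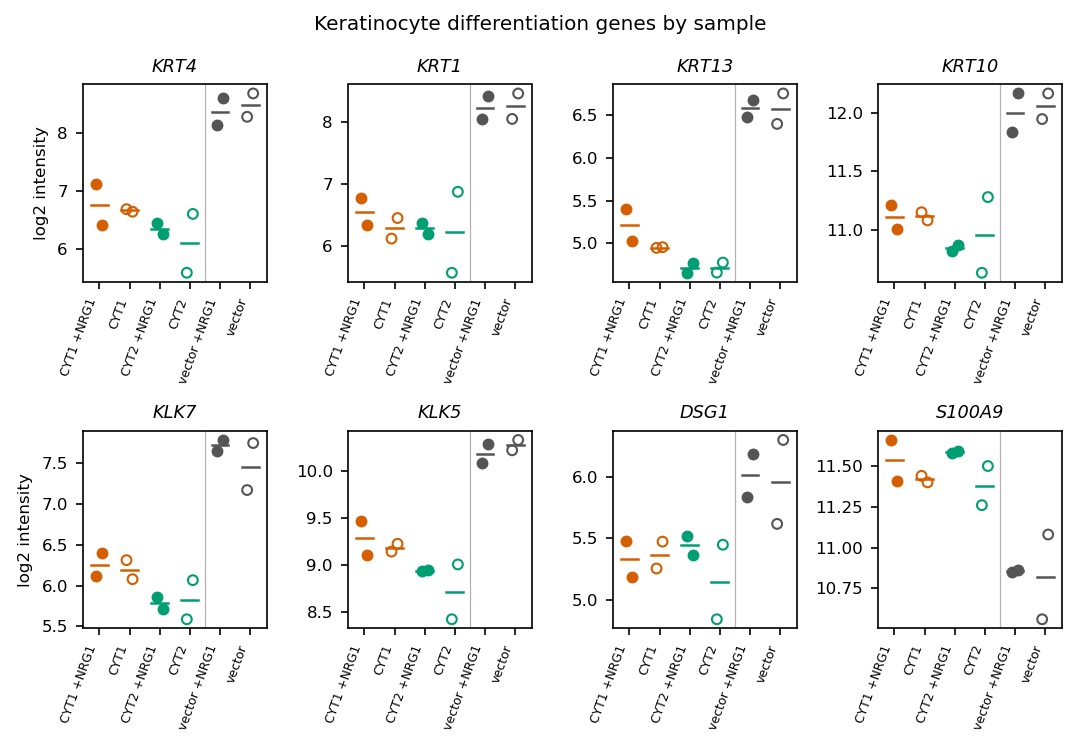
Log2 intensity of 8 keratinocyte differentiation genes by group, each point a biological sample (filled with NRG1, open without ligand) and each bar the mean of 2. For KRT4, KRT1, KRT13, KRT10, KLK7, KLK5 and DSG1 all 8 ERBB4 points lie under all 4 vector points, and for S100A9 all lie above; each panel has its own scale, which does not start at 0.

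Of the 6 largest falls in that list, KRT1 and KRT13 are named only, and the start-site regions of the other 4 are shown because these genes moved together. Each runs from 250 bases before to 50 after the RefSeq start (GRCh38.p14). The regions are those of KRT4 (chr12:52814067-52814366, minus strand), KLK7 (chr19:50983868-50984167, minus strand), KLK5 (chr19:50952989-50953288, minus strand) and KRT10 (chr17:40822565-40822864, minus strand). Sequences run 5′ to 3′ along the gene, and capitals mark the letters TATAA, the core of a TATA box, found on either strand.
KRT4: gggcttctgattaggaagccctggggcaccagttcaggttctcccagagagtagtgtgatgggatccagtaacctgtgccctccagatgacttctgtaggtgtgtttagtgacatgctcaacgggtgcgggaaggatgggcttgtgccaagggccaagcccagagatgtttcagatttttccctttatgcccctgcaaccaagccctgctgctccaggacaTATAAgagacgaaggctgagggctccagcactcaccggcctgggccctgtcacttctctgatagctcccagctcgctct
KLK7: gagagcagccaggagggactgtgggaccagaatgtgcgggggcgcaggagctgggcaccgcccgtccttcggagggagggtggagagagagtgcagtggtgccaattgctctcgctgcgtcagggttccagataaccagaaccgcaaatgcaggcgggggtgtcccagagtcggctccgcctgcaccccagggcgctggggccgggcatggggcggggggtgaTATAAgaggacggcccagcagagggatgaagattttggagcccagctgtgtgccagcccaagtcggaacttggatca
KLK5: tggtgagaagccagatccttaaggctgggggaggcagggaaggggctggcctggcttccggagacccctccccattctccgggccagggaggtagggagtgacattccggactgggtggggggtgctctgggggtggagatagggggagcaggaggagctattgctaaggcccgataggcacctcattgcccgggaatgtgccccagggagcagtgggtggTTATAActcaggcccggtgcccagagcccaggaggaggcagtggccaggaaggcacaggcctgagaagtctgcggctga
KRT10: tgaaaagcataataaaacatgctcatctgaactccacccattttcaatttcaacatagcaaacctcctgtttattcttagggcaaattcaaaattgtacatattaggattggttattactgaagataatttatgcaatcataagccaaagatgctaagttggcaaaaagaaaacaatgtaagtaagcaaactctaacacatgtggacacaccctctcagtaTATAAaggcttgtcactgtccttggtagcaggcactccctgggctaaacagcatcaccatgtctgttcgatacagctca
The motif begins 29 bases before the start in KRT4 and KRT10 and 27 bases before it in KLK7. In KLK5 matches on opposite strands overlap, at 29 and 28 bases before the start. TATAA was present in 21.1% of 27305 RefSeq windows of this length, and in 6 of the 10 lower keratinocyte genes with a window in the table (CNFN, DSG1, KLK5, KLK7, KRT10 and KRT4). Over all lasting lower genes the share was 22.9%, or 27 of 118, and over lasting higher genes 11.1%, or 7 of 63. The AP-1 motif TGANTCA was present in 7.76% of all windows and in 2 of those 10 genes, SBSN and SPRR1B. These matches are descriptions of sequence, with no binding measured.

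Other large falls were in carriers, enzymes and secreted proteins. TCN1, which carries vitamin B12, ran from 4.60 to 5.20 in ERBB4 samples (median 4.83), against 6.48 and 6.61 in vector samples with NRG1 and 6.08 and 7.01 in those without ligand. It changed by -1.68 (SE 0.14, adjusted p = 3.46e-05) and was above background on 5 of 16 arrays of ERBB4 lines and on all 8 vector arrays. FOLR1, a folate receptor, changed by -1.13 (SE 0.17, adjusted p = 0.00196), with 6.60 to 7.57 in ERBB4 samples against 7.96 to 8.62 in vector samples. Neither gene's groups overlapped. Among carriers of small lipids, the retinoic acid carrier CRABP2 changed by -0.98 (SE 0.12, adjusted p = 0.000346) and the fatty acid carrier FABP4 by -1.35 (SE 0.24, adjusted p = 0.00747). FABP4 also had the widest vector spread of the 15 largest falls, 8.36 to 9.58, against 6.69 to 8.01 in ERBB4 samples.

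GPX2, a glutathione peroxidase, ran from 6.11 to 6.70 in ERBB4 samples (median 6.38), against 7.49 and 7.86 in vector samples with NRG1 and 7.35 and 8.04 in those without ligand. It fell by 1.32 (SE 0.13, adjusted p = 6.51e-05). It was the 1 lower gene of 21 in the NRF2 and glutathione list, too few to set against the 1.82% of all genes. The secreted factor IGFL1 changed by -1.44 (SE 0.15, adjusted p = 9.12e-05), and ATP6V1B1, a subunit of the vacuolar proton pump, by -1.06 (SE 0.11, adjusted p = 6.51e-05). APCDD1, an inhibitor of Wnt signalling, changed by -1.01 (SE 0.16, adjusted p = 0.00427). The inducible chaperone HSPA6 changed by -0.96 (SE 0.15, adjusted p = 0.00406), while its other probe gave -0.45. CLDN7, a tight junction protein of luminal epithelium, ran from 8.002 to 8.448 in ERBB4 samples, against 9.10 and 8.88 in vector samples with NRG1 and 9.11 in each vector sample without ligand (-0.85, SE 0.08, adjusted p = 5.41e-05). It and CD24 (-0.29, adjusted p = 0.0272) were the lower members of the luminal list, 2 of 15, against 1.82% of all genes. That count ran from 1 to 3 when any 1 sample was left out. CD24 lost its call under 10 of 25 alternatives of processing or samples.

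The largest rise was in KIR2DL4, a receptor of natural killer cells. It ran from 6.22 to 6.95 in ERBB4 samples (median 6.59), against 5.64 and 5.41 in vector samples with NRG1 and 5.58 and 5.81 in those without ligand, with no overlap. It rose by 0.99 (SE 0.10, adjusted p = 8.14e-05), or 1.99-fold. The KIR genes are near-identical copies, so probes may share targets. KIR2DL5A also rose (0.47, adjusted p = 0.0122), from a probe above background on 13 of 16 arrays of ERBB4 lines and 0 of 8 vector arrays, at least 1.18-fold higher, but its other probe gave -0.03. The immune and endothelial list had 3 of its 11 genes measured, and their summed log2 level was 8.91 to 9.20 in ERBB4 samples and 9.10 to 9.23 in vector samples.

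ACOX2, a peroxisomal acyl-CoA oxidase, ran from 7.71 to 8.58 in ERBB4 samples (median 8.11), against 7.42 and 7.10 in vector samples with NRG1 and 7.28 and 7.13 in those without ligand. It rose by 0.89 (SE 0.11, adjusted p = 0.000506). POGLUT3, a protein O-glucosyltransferase, ran from 5.68 to 6.21 in ERBB4 samples (median 6.02), against 5.22 and 5.26 in vector samples with NRG1 and 5.06 and 5.04 in those without ligand. It rose by 0.86 (SE 0.08, adjusted p = 5.41e-05), and neither gene's groups overlapped.

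Of extracellular and membrane proteins, the protease inhibitor SERPINE2 rose by 0.63 (SE 0.14, adjusted p = 0.0255), with 9.75 to 10.55 in ERBB4 samples against 9.33 to 9.54 in vector samples. NRP2, a co-receptor for semaphorins and vascular endothelial growth factors, rose by 0.62 (SE 0.10, adjusted p = 0.0041), with 5.795 to 6.398 in ERBB4 samples against 5.23 to 5.61 in vector samples. The matrix proteoglycan VCAN rose by 0.50 (SE 0.07, adjusted p = 0.00101). SERPINE2 lost its call in limma's test without vector sample 2 without ligand (adjusted p = 0.0843) or without vector sample 1 or 2 with NRG1 (adjusted p = 0.0508 and 0.0994). NRP2 and VCAN kept theirs when any 1 sample was left out. DPYSL4 was above background on 15 of 16 arrays of ERBB4 lines and 0 of 8 vector arrays, and was at least 1.202-fold higher (fitted adjusted p = 0.0096). TNFRSF6B, a decoy receptor for Fas ligand, was above background on 7 and 0 of those arrays (adjusted p = 0.0261), and TPRG1 on 14 and 1 (0.49, adjusted p = 0.0189). NUDCD1 (0.50), TMT1A (0.49), the cell-cycle genes DEPDC1 (0.48) and CCNA1 (0.48) completed the 15 largest rises.

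Among 31 mitosis genes, 4 were higher: the spindle checkpoint genes BUB1 (0.30, SE 0.06, adjusted p = 0.0208) and MAD2L1 (0.34, SE 0.09, adjusted p = 0.0497), the spindle gene DLGAP5 (0.32, SE 0.07, adjusted p = 0.0259) and cyclin B1, CCNB1 (0.39, SE 0.09, adjusted p = 0.037). That is 12.9%, against 0.995% of all genes. In all, 30 of the 31 had a difference above 0, with a median of 0.19, beside 0.00343 over all genes. The list median was 0.09 with NRG1 and 0.29 without ligand. BUB1 ran from 8.37 to 8.68 in ERBB4 samples, against 8.20 and 8.24 in vector samples with NRG1 and 8.12 and 8.24 in those without ligand, so the gap between the groups was narrow. With NRG1 0 of the 31 passed, and without ligand 8 were higher, against 0.866% of all genes. The count of 4 was 0 without either vector sample without ligand and 1 without vector sample 2 with NRG1. It was 5 without CYT1 sample 1 with NRG1, and 2 without vector sample 1 with NRG1, CYT2 sample 1 without ligand, CYT1 sample 2 without ligand or either CYT2 sample with NRG1.

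The comparison was then made within each ligand state, where the samples with NRG1 and those without ligand are separate sets. Whether vector samples of the same number are related across the states was not tested, so the sets may not be independent. With NRG1, 59 genes (0.477%) differed, 15 higher (0.121%) and 44 lower (0.356%). Without ligand, 287 genes (2.32%) differed, 107 higher (0.866%) and 180 lower (1.46%). Both states shared 38 genes with the same sign and 1, MMP3, with opposite signs, which is 66.1% of the genes called with NRG1 and 13.6% of those called without ligand counting the 38 and the 1 together. All 38 were lasting, 0.308% of genes tested, with 30 lower and 8 higher. They include KRT4, KRT1, KRT13, KRT10, KLK7, KLK5, TCN1, IGFL1, GPX2, ATP6V1B1, APCDD1, CRABP2 and CLDN7 among the lower genes. The 8 higher were KIR2DL4, ACOX2, POGLUT3, S100A9, SERPINE2, NRP2, CCNA1 and PID1. KRT4 differed by -1.81 (adjusted p = 0.00924) with NRG1 and by -2.10 (adjusted p = 0.00219) without ligand, and KRT10 by -1.03 in each state (adjusted p = 0.0132 and 0.00844). KIR2DL4 differed by 0.996 (adjusted p = 0.00322) with NRG1 and by 0.984 (adjusted p = 0.00197) without ligand. With only 2 vector samples in each state the count of 38 was unstable. It was 14 without vector sample 1 and 2 without vector sample 2 with NRG1, 20 and 18 without either vector sample without ligand, and 23, 21, 20, 23 and 21 in turn without CYT1 sample 1 with NRG1, CYT1 sample 1 or 2 without ligand, or CYT2 sample 1 or 2 with NRG1.

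The counts within each state moved in the same way. That with NRG1 was 18 without vector sample 1 and 3 without vector sample 2 of that state, 34 without CYT1 sample 1 or CYT2 sample 1 with NRG1, 29 without CYT2 sample 2 with NRG1, and 35 without CYT1 sample 1 or 2 without ligand. That without ligand was 53 without vector sample 1, 109 and 59 without CYT1 sample 1 or 2, and 136 without CYT2 sample 1 of that state, and 175 without vector sample 1 or 2 with NRG1.

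**Figure D3:**
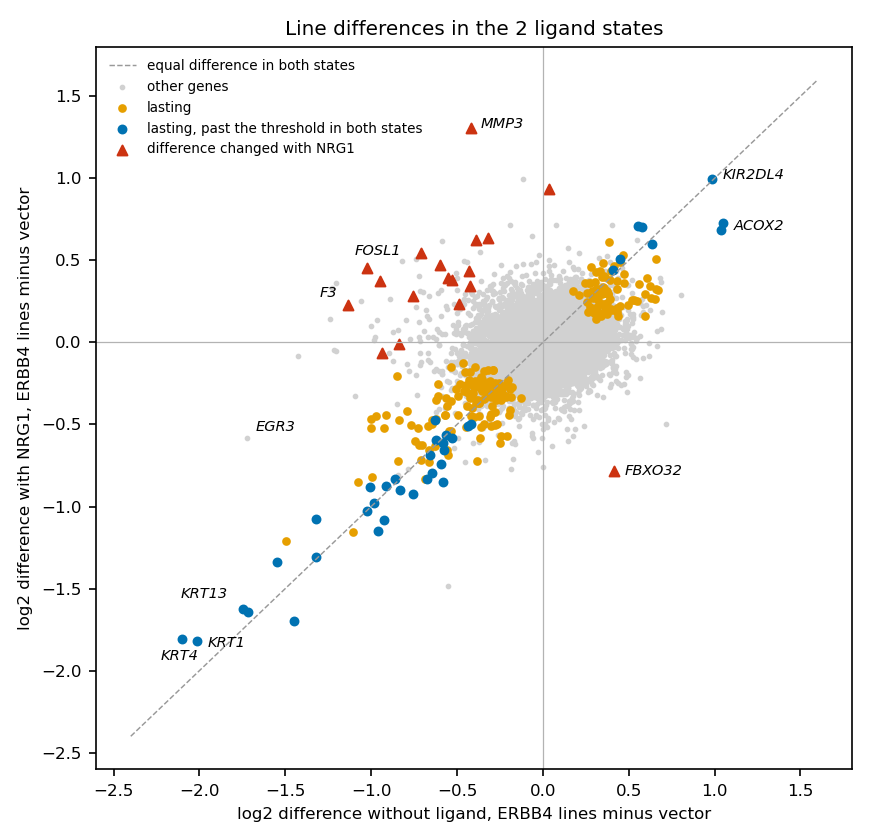
Log2 difference of ERBB4 lines from vector with NRG1 (vertical) against the difference without ligand (horizontal), each point a gene. Lasting genes past the threshold in both states (blue), such as KRT4 at -1.81 with NRG1 and -2.10 without ligand, lie near the dashed line of equal difference. Genes whose difference changed with NRG1 (red triangles), such as MMP3 at 1.31 and -0.42, lie far from it.

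Differences seen without ligand were mostly smaller with it. Of the 287 genes called without ligand, 216 had the same sign with NRG1, beside 58.8% of all genes. Their median size in that direction was 0.14 with NRG1 and 0.53 without ligand. Of the 59 genes called with NRG1, 51 had the same sign without ligand, and their median size was 0.72 with NRG1 and 0.58 without ligand. These medians favour the state in which the genes were called. Among the genes of one state, the cytokine IL33 differed by 0.99 (adjusted p = 0.00924) with NRG1 and by -0.12 without ligand, and the cytokine receptor IL7R by 0.93 (adjusted p = 0.00192) with NRG1 and 0.03 without ligand. The glycine cleavage enzyme GLDC differed by 0.29 with NRG1 and by 0.80 (adjusted p = 0.0203) without ligand, and the sodium channel subunit SCNN1A by 0.19 with NRG1 and 0.70 (adjusted p = 0.0313) without ligand. Of the 251 lasting genes, 157 had the smaller difference with NRG1, 93 of the 161 lower genes and 64 of the 90 higher genes. No share over all genes stands beside these counts, so they are descriptions.

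The change of the line difference with NRG1 was tested directly as an interaction, which 18 genes (0.146%) passed, and 1054 had an unadjusted p under 0.05. None of these 18 was among the 251 lasting genes, or among the 348 called genes. This follows largely from the fits. A difference that changes with NRG1 adds to the spread of the ligand-averaged test, as for MMP3 (0.44, SE 0.33). Of the 18, the difference was more positive with NRG1 in 17 (0.138% of genes) and more negative in 1 (0.00809%), and 16 of those 17 were below vector without ligand. MMP3, a secreted matrix metalloproteinase, had 6.17 and 6.29 in CYT1 and 7.52 and 7.71 in CYT2 samples with NRG1, against 5.63 and 5.61 in vector samples with NRG1. Without ligand it had 5.33 and 5.55 in CYT1 and 5.02 and 5.11 in CYT2 samples, against 5.57 and 5.78 in vector samples. ERBB4 samples were thus all above vector with NRG1 and all below it without ligand. The difference was 1.31 with NRG1 and -0.42 without ligand, an interaction of 1.73 (SE 0.14, adjusted p = 0.000371).

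FOSL1, a subunit of the transcription factor AP-1, had 8.19 to 8.62 in ERBB4 samples with NRG1, against 7.93 and 7.96 in vector samples with NRG1. Without ligand it had 6.86 to 7.61 in ERBB4 samples, against 8.546 and 8.003 in vector samples, an interaction of 1.48 (SE 0.24, adjusted p = 0.0372). Its line difference was 0.46 with NRG1 and -1.02 without ligand. Tissue factor, F3, which starts blood coagulation, gave 0.22 with NRG1 and -1.13 without ligand (interaction 1.36, adjusted p = 0.0291). The sphingosine-1-phosphate receptor S1PR3 gave 0.37 and -0.95 (interaction 1.32, adjusted p = 0.037), and the transcriptional coactivator CITED4 gave 0.54 and -0.71 (interaction 1.25, adjusted p = 0.0372), each with NRG1 and then without ligand. FBXO32, a ubiquitin ligase subunit and FOXO target, was the 1 gene with a negative interaction (-1.20, SE 0.20, adjusted p = 0.0372). It had 8.21 to 8.83 in ERBB4 samples with NRG1, against 9.34 and 9.54 in vector samples with NRG1, and 9.78 to 9.89 in ERBB4 samples without ligand, against 9.31 and 9.54 in vector samples. The count of 18 fell to 1 without any 1 vector sample, without CYT1 sample 1 with NRG1 or without CYT1 sample 2 without ligand. It was 31 without CYT1 sample 2 with NRG1, 7 without CYT1 sample 1 without ligand, 5 without CYT2 sample 2 without ligand and 4 without CYT2 sample 1 with NRG1.

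**Figure D4:**
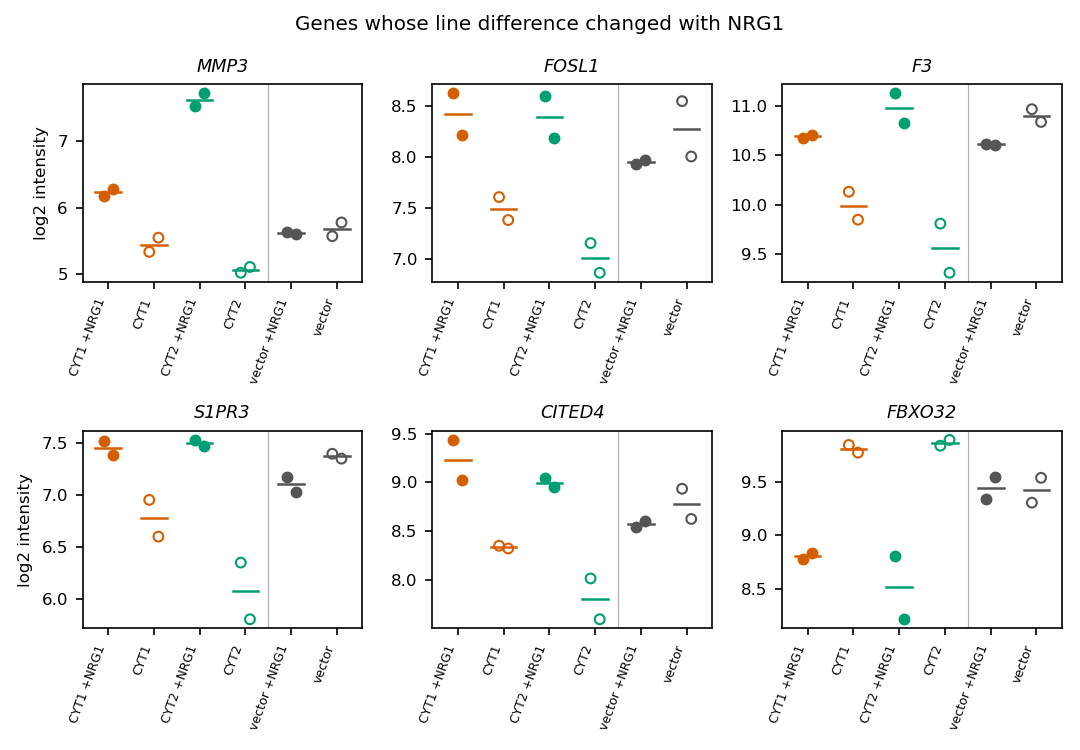
Log2 intensity of MMP3, FOSL1, F3, S1PR3, CITED4 and FBXO32 by group, each point a biological sample (filled with NRG1, open without ligand) and each bar the mean of 2. In the first 5 panels every ERBB4 point with NRG1 lies above every ERBB4 point without ligand, and in the FBXO32 panel every one lies below; each panel has its own scale.

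The list of ERK pathway feedback genes holds genes switched on by ERK signalling, of which only some restrain it. None of the 21 measured ERK pathway feedback genes passed with ligand averaged, and their median was -0.16. Without ligand 6 were lower (SPRY4, PLAUR, DUSP5, EPHA2, PHLDA1 and PHLDA2), against 1.46% of all genes, 19 of 21 lay below 0 and the median was -0.56. With NRG1 none passed, 5 of 21 lay below 0 and the median was 0.14. SPRY4, which restrains signalling downstream of receptor tyrosine kinases, had 7.77 to 8.29 in ERBB4 samples with NRG1, against 7.63 and 7.61 in vector samples with NRG1. Without ligand it had 5.38 to 6.96 in ERBB4 samples, against 7.53 and 7.65 in vector samples. The interaction for SPRY4 had an adjusted p of 0.12, and its second probe gave a difference of 0.01 with ligand averaged.

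Among 22 immediate-early genes, 2 were lower on average, against 1.82% of all genes. They were the zinc finger factors EGR3 (-1.15, SE 0.28, adjusted p = 0.0394) and EGR1 (-1.02, SE 0.24, adjusted p = 0.0345). Their groups overlapped, so neither was lasting. EGR3 differed by -0.58 with NRG1 and by -1.72 without ligand, and EGR1 by -1.48 and -0.55. EGR3 was above background on 10 of 16 arrays of ERBB4 lines and on all 8 vector arrays. EGR1 ran from 8.57 to 10.07 in ERBB4 samples (median 9.79), against 10.28 and 11.18 in vector samples with NRG1 and 10.06 and 10.95 in those without ligand. The overlap was between 1 vector sample at 10.06 and 1 ERBB4 sample at 10.07. The count of 2 was 0 on the unnormalized values, and 0 without vector sample 2 of either state, CYT1 sample 2 of either state or CYT1 sample 1 without ligand. It was 1 without vector sample 1 of either state, CYT2 sample 1 or 2 without ligand or CYT2 sample 2 with NRG1. With NRG1 0 of the 22 passed, and without ligand 7 were lower, against 1.46% of all genes, including KLF6 (-0.998, adjusted p = 0.007).

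None of the 9 measured ERBB receptors and ligands passed with ligand averaged. EGFR gave -0.14 (SE 0.09, adjusted p = 0.45), ERBB2 -0.08 (SE 0.07, adjusted p = 0.591), ERBB3 -0.23 (SE 0.10, adjusted p = 0.248) and NRG1 itself 0.08 (SE 0.15, adjusted p = 0.833). TGFA, a ligand of EGFR, gave 0.47 with NRG1 and -0.60 (adjusted p = 0.01) without ligand, and its interaction passed (1.07, adjusted p = 0.0215). HBEGF, a ligand of EGFR and ERBB4, gave -0.08 with NRG1 and -1.43 (adjusted p = 0.0399) without ligand.

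**Figure D5:**
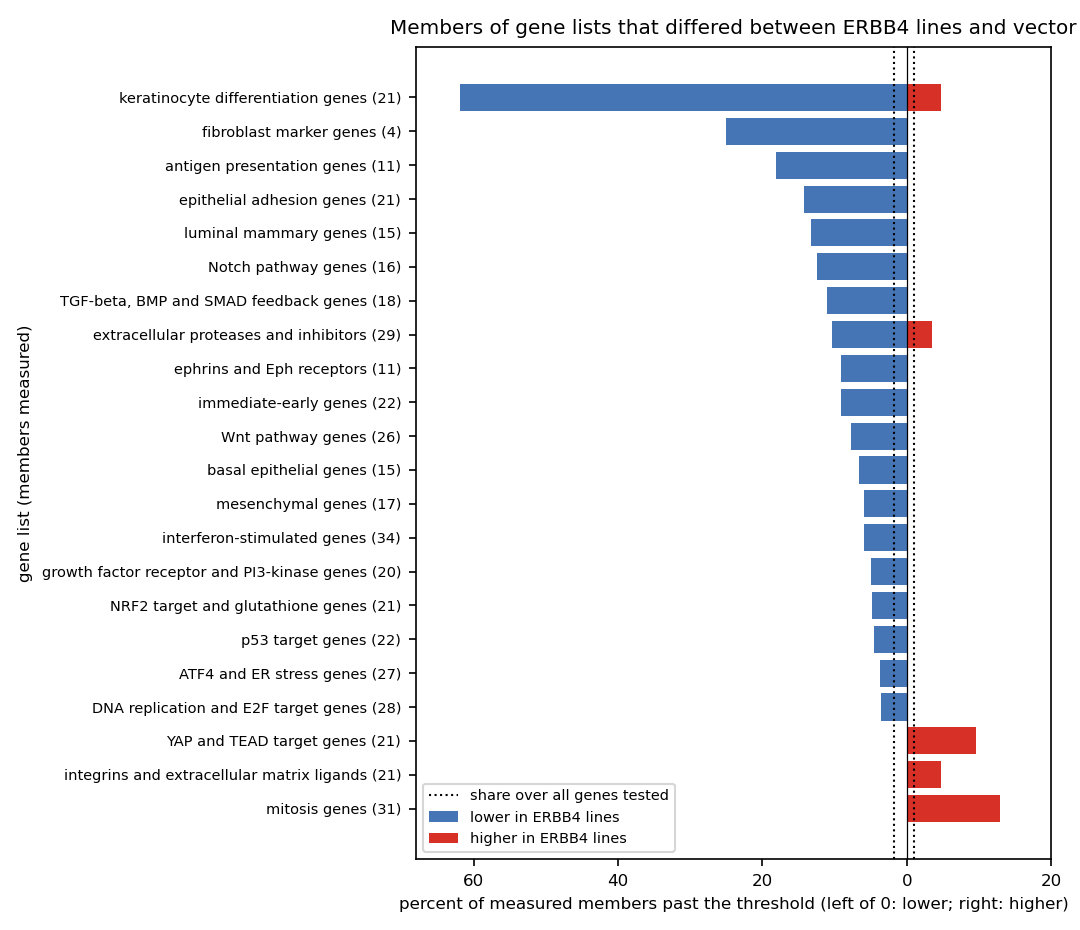
Percent of the measured members of each gene list that passed the test with ligand averaged, to the left where lower in ERBB4 lines than in vector and to the right where higher, for the 22 lists with any such member. Dotted lines mark the share over all genes tested, 1.82% lower and 0.995% higher. The keratinocyte differentiation list reaches furthest left, with 13 of 21 members lower, and the mitosis list furthest right, with 4 of 31 higher.

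In the remaining lists few members passed, and leaving out 1 sample moved most of these counts. Over all genes 1.82% were lower and 0.995% higher, and a single called member in a list is too few to set against these shares. Extracellular proteases and their inhibitors had 3 lower members of 29, the inhibitors SERPINB7 (-0.41), SLPI (-0.38) and SERPINB13 (-0.36), and 1 higher, SERPINE2, and each was lasting. The epithelial adhesion list had 3 lower of 21, the desmosome genes PKP1, DSC2 and DSC3. Of 16 genes in the Notch pathway list HES4 (-0.62, adjusted p = 0.00201) and HES2 (-0.38, adjusted p = 0.0383) were lower and lasting. Of 34 interferon-stimulated genes BST2 (-0.47) and IFI27 (-0.58) were lower, and of 11 antigen presentation genes HLA-B (-0.45) and HLA-F (-0.29). Of 18 TGF-beta, BMP and SMAD genes the BMP targets ID1 (-0.61) and ID2 (-0.63) were lower, and of 26 Wnt genes the ligands WNT10A (-0.52) and WNT4 (-0.50). Of 21 YAP and TEAD targets TGFB2 (0.58, adjusted p = 0.0096) and NT5E (0.56, adjusted p = 0.0267) were higher, with overlapping groups in both. COL1A1, a fibroblast and mesenchymal marker, was lower and lasting (-0.34, adjusted p = 0.0264), and its part in the other results was not tested. It was above background on 10 of 16 arrays of ERBB4 lines and on all 8 vector arrays, and lost its call under 11 of 25 alternatives. Single members fell in 5 further lists with overlapping groups: the cell-cycle factor E2F2 (-0.48, 1 of 28 DNA replication genes), the actin-binding TAGLN (-0.71, 1 of 15 basal genes), the receptor EPHA4 (-0.76, 1 of 11 ephrin genes), GADD45A (-0.45, 1 of 22 p53 targets) and the glycine transporter SLC6A9 (-0.44, 1 of 27 stress genes), whose other probe gave 0.02. The growth factor binding protein IGFBP5 was lower and lasting (-0.70, 1 of 20 growth factor receptor and phosphatidylinositol 3-kinase genes), and the microfibril protein FBN2 was higher and lasting (0.33, 1 of 21 integrins and matrix ligands). On the unnormalized values the counts for proteases (lower), adhesion, interferon, antigen presentation, TGF-beta, Wnt and YAP genes were 0, and that for Notch genes was 1. Without vector sample 2 with NRG1, the counts were 0 for lower proteases, antigen presentation, TGF-beta, Wnt and YAP genes, 1 for interferon and Notch genes and 2 for adhesion genes. Without vector sample 2 without ligand they were 0 for antigen presentation, TGF-beta and Wnt genes and 1 for lower proteases, adhesion, interferon, Notch and YAP genes. Over all samples left out in turn they ran from 0 to 5 for lower proteases, 1 to 4 for adhesion and interferon genes, 0 to 3 for antigen presentation and Wnt genes, 0 to 2 for TGF-beta and YAP genes and 1 to 2 for Notch genes. No member passed with ligand averaged in the lists of cholesterol synthesis (19 measured), fatty acid synthesis (13), hypoxia and glycolysis (24), inflammatory and NF-kB targets (23), STAT5 targets (11) or FOXO targets (18).

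Both isoforms were also set against vector one at a time, with the same 4 vector samples in both comparisons. CYT1 cells differed in 129 genes (1.04%), 40 higher (0.324%) and 89 lower (0.72%). CYT2 cells differed in 320 genes (2.59%), 101 higher (0.817%) and 219 lower (1.77%). KRT4 differed by -1.71 (SE 0.20) in CYT1 cells and by -2.20 (SE 0.20) in CYT2 cells, and KRT1 by -1.83 (SE 0.22) and -1.999 (SE 0.22). SERPINE2 differed by 0.39 (SE 0.10, adjusted p = 0.0828) in CYT1 cells and by 0.87 (SE 0.10, adjusted p = 0.00025) in CYT2 cells. In a comparison added after the data were seen, no gene differed between CYT1 and CYT2 cells with ligand averaged in limma's test. The smallest adjusted p was 0.182, and 1149 genes had an unadjusted p under 0.05. For KRT4 the CYT1 minus CYT2 difference was 0.49 (SE 0.20, adjusted p = 0.523), and for SERPINE2 it was -0.49 (SE 0.10, adjusted p = 0.337), so missing the threshold does not show that the isoforms act alike. Of the 251 lasting genes, 107 passed for CYT1 cells and 177 for CYT2 cells taken alone. The count of 129 was 53 to 61 without vector sample 2 of either state or CYT1 sample 1 or 2 without ligand. The count of 320 was 134 and 153 without vector sample 2 without ligand or with NRG1, 199 without vector sample 1 with NRG1, 211 without CYT1 sample 1 without ligand, 116 without CYT2 sample 1 without ligand and 132 without CYT2 sample 2 with NRG1.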

How the data were processed

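The 24 arrays were Illumina BeadChips. Per the file headers, the deposited values are a mean bead intensity for each probe, not normalized. A detection p-value per probe was deposited beside it. The authors' value table holds deposited log2 values that equal log2 of the same intensity, and it was used as an alternative. Which software read the scans is not given in the sources used here.

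For normalization, the neqc function of limma 3.58.1 under R 4.3.3 (offset 16) corrected background and equalized quantiles. It derived its negative controls from those detection p-values. Of 47323 probes, 30113 carried 1 gene symbol, 8 several and 17202 none. Probes with a detection p under 0.05 on at least 4 arrays were kept (23019, of which 16620 were named), and the probe of highest mean stood for each of 12357 genes. The 2 technical arrays of a sample were averaged. Per array 18745 to 20370 probes were detected, and the number of arrays limits the precision.

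ERBB4 lines were tested against vector in an additive limma model with ligand, and the comparisons within ligand states and the interaction in a model of 6 group means. P-values were adjusted by Benjamini-Hochberg over all genes. The procedure was tested on simulated data. Genes named were the 15 largest lasting rises and falls, up to 4 called members of each list, the 5 largest in each direction of the interaction and of each ligand state, and EGFR, ERBB2, ERBB3, ERBB4 and NRG1. Other genes were chosen after their values were seen. The comparison, members and lists were chosen with earlier results of these data known. Samples were not paired by replicate letter. Over all genes, the correlation of deviations between groups ran from -0.171 to 0.23 and passed 0.1 in 4 of 15 pairs of groups. It was 0.23 between vector samples with NRG1 and without ligand, and between vector and CYT1 samples without ligand. In vector cells FABP4 was higher in sample 2 in both states (8.36 and 9.58 without ligand, 8.49 and 9.35 with NRG1). The same held for every gene among the 15 largest falls except HSPA6. KRT4, for example, had 8.29 and 8.69 without ligand and 8.14 and 8.60 with NRG1. It did not hold for KIR2DL4. Whether vector samples of 1 letter are related was not tested, and if so p-values with ligand averaged would be too small. Files gave no chip or scan date, so neither could be tested. Alternatives covered normalization, probe filter, model, replicate block, technical array and leaving out each sample.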

Additional observations from a re-analysis of the deposited data

Results flagged for a closer look

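The line difference changed with NRG1 in 18 genes, by the interaction test. The change, with NRG1 minus without ligand on the log2 scale, was 1.73 for MMP3, 1.48 for FOSL1, 1.36 for F3, 1.32 for S1PR3, 1.25 for CITED4 and 1.07 for TGFA. It was 1.04 for IFFO1, 1.02 for ANGPTL4, 0.96 for LRRC8C, 0.95 for GJB2, 0.91 for PTPRE, 0.90 for IL7R and 0.87 for GBP1. It was 0.86 for MMP10, 0.83 for IL1B, 0.77 for MAP3K9 and 0.72 for CDCP1, and -1.20 for FBXO32.

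For each of 78 named genes, the 8 ERBB4 samples and the 4 vector samples were each examined as 1 group. One sample lay far from the others in 15 of these 156 groups. Chance alone gives about 1 in 20 for independent values of a uniform group. These groups pool ligand states, and the ERBB4 groups also pool lines, so that rate need not hold here. In ERBB4 lines, CYT2 sample 1 without ligand was low for CRABP2 (8.32), FABP4 (6.69) and SERPINB13 (10.68). CYT2 sample 2 without ligand was high for EPHA4 (7.31). With NRG1, CYT1 sample 1 was high for CD24 (13.14) and CYT1 sample 2 low for POGLUT3 (5.68). In the vector line without ligand, sample 1 was low for CCNB1 (8.71) and TMT1A (6.82) and high for FOSL1 (8.55) and HSPA6 (7.003). Sample 2 of that group was low for ERBB2 (8.87) and GLDC (5.93) and high for IL33 (6.09). Vector sample 2 with NRG1 was low for CLDN7 (8.88) and NRP2 (5.23).

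Among 6399 probes with no gene name here, 51 passed the same test (0.797%), 18 higher and 33 lower, and 42 had no overlap between ERBB4 and vector samples. The largest rise was in ILMN_1667232, with a mean of 7.08 in ERBB4 samples and 5.86 in vector samples (1.22), and the largest fall in ILMN_3191393, with 5.27 in ERBB4 samples and 6.08 in vector samples (-0.81).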

How the results depend on the processing

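Of the 30 largest lasting differences, 19 kept their direction and their side of the threshold under every alternative run, 13 of 15 falls (all but FABP4 and APCDD1) and 6 of 15 rises (KIR2DL4, ACOX2, POGLUT3, S100A9, NRP2 and VCAN). Their sizes did not all hold: without background correction KIR2DL4 gave 0.416, POGLUT3 0.291 and NRP2 0.23, and on the authors' unnormalized values KRT13 gave -0.588, TCN1 -0.595, KRT4 -1.17 and KRT1 -1.10. Counts moved as well, and the cause was not tested. On the authors' unnormalized values they were 116 for ERBB4 lines against vector, 19 without ligand, 6 with NRG1, 0 for the interaction, 63 for CYT2, 93 lasting (54 of them among the 251) and 1 lasting in both states. With normexp and an offset of 50 they were 441 without ligand, 33 for the interaction and 196 for CYT1. Without background correction they were 434 without ligand and 210 for CYT1. With no probe filter they were 29 with NRG1, 3 for the interaction and 19 in both states. With each ligand state fitted as group means on its own samples alone, they were 129 without ligand and 31 with NRG1. With 6 group means for the ligand-averaged test as well, 17 were lasting in both states. Technical array 1 or 2 alone gave 161 and 136 for ERBB4 lines against vector, 137 and 71 without ligand, 26 and 19 with NRG1, 0 and 0 for the interaction, 68 and 60 for CYT1, 175 and 126 for CYT2, 133 and 126 lasting, and 16 and 17 in both states. All 24 arrays with the sample as a random block gave 730, 911 without ligand, 208 with NRG1, 133 for the interaction, 597 for CYT1, 687 for CYT2 and 100 in both states. Trend and robust fitting gave 37 for the interaction and 204 for CYT1.

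With the replicate block the counts were 347 for ERBB4 lines against vector, 307 without ligand, 74 with NRG1, 36 for the interaction, 150 for CYT1, 327 for CYT2, 246 lasting and 46 in both states. Leaving out 1 sample gave 103 to 527 for ERBB4 lines against vector, 53 to 387 without ligand, 3 to 77 with NRG1, 1 to 31 for the interaction, 53 to 171 for CYT1, 116 to 384 for CYT2, 99 to 407 lasting and 2 to 51 in both states. Differences near 0, none of them past the threshold with ligand averaged, changed sign. CITED4 gave 0.0354 and ERBB2 0.0256 on the unnormalized values. CITED4 gave 0.13 and FOSL1 0.00249 without vector sample 1 without ligand, CITED4 gave 0.01 without vector sample 2 and 0.02 without CYT2 sample 2 of that state. FBXO32 gave 0.00536 and NRG1 -0.03 without vector sample 2 with NRG1, and NRG1 gave -0.00791 without CYT2 sample 2 with NRG1. Over all samples left out in turn, CITED4 ran from -0.25 to 0.13, FBXO32 from -0.38 to 0.00536, FOSL1 from -0.475 to 0.00249 and NRG1 from -0.0258 to 0.22. Signal near background limits KRT13 and TCN1 in ERBB4 lines.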

Other observations

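Small nucleolar RNAs guide chemical modification of ribosomal and other RNAs. Of 116 measured, 14 were higher in ERBB4 lines and 0 lower by limma's adjusted p, against 0.995% and 1.82% of all genes. In all 91 lay above 0, with a median of 0.13, most of them short of the threshold. SNORD96A rose by 0.44 (SE 0.06, limma adjusted p = 0.00196) and SNORD80 by 0.40 (SE 0.07, limma adjusted p = 0.00649). Heat shock proteins and J-domain cochaperones were balanced as a family, with 32 of 60 above 0, 28 below it and a median of 0.02. Of the 60, 5 were lower, against 1.82% of all genes: HSPA6 (-0.96), HSPA1A (-0.48), HSPA7 (-0.37), DNAJB1 (-0.36) and HSPA1B (-0.31). HSPA6 and HSPA7, and HSPA1A and HSPA1B, are near-identical copies whose probes may share targets. The mitochondrial chaperonin HSPD1 was the 1 higher member (0.25), against 0.995% of all genes. These families were chosen after their values were seen, so their counts are descriptions.

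By chromosome (RefSeq, GRCh38.p14), chromosome 13 held 7 lasting higher genes and 0 lasting lower genes of 220 tested, or 3.18% and 0%, against 0.728% and 1.3% of all genes, with a median difference of 0.05. The 7 were BORA, CCNA1, DIAPH3, LCP1, MZT1, NAA16 and SKA3. On chromosome 19 the shares, 0.709% higher and 2.13% lower of 846, lay nearer those of all genes. Copy number was not measured here, and the chromosomes were picked after their counts were seen.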
